A study of Sus scrofa with 20 samples.

Results

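Collagens and the small leucine-rich proteoglycans that coat their fibrils make up most of the fibrous matrix between uterine cells. The set described here holds 57 of the 30345 genes in the table: all 42 genes with a collagen chain symbol apart from COL17A1, and 15 companions chosen by name. These companions are the proteoglycans LUM, DCN, BGN, FMOD, OGN, ASPN, PRELP and OMD, the PDGF receptors PDGFRA and PDGFRB, and the matrix genes FN1, POSTN, SPARC, LOX and ELN. Of the 57 genes, 54 had enough counts to be tested. COL2A1, COL9A1 and COL10A1 did not, and the highest level of the 3 in any library was 4.13 CPM (counts scaled to a common library total by TMM), of COL9A1 in CONTROL_4.

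Uterine messenger RNA of 20 sows was sequenced, 1 library each, in 4 groups of 5 sows. FR1 sows were inseminated with the sperm-rich fraction of the boar ejaculate. FR2 sows received the rich and intermediate fractions, and FR3 sows the rich, intermediate and poor fractions. CONTROL sows were not inseminated. All sows were Large White by Landrace crosses labelled wild type, the semen came from 3 Pietrain boars, and tissue was taken 6 days after estrus began. Which boar served which sow and which sows held embryos are not in the labels, so semen and early pregnancy cannot be told apart in any comparison with CONTROL. Insemination was post-cervical and repeated daily during standing estrus, and no group received fluid without semen, so the procedure and the semen cannot be told apart either. The tissue is labelled only as uterus, and 10 markers of smooth muscle and 14 of uterine epithelium passed the filter on low counts. In such bulk tissue fewer cells of a type and less RNA per cell cannot be told apart.

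Collagen chains are modified and folded in the endoplasmic reticulum as triple helices, secreted, trimmed by proteinases and cross-linked by lysyl oxidases. Fibrillar collagens form the cables of connective tissue, type IV collagen forms the sheet of basement membranes, and small leucine-rich proteoglycans bind the fibrils and set their width and spacing. In the uterus fibroblasts of the endometrial stroma and smooth muscle cells make most of this matrix, and PDGF receptors mark cells of that mesenchymal lineage.

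Members took 0.597% to 2.46% of all counts in the inseminated libraries and 0.349% to 1.5% in CONTROL, at library totals of 32978951 to 62939036 counts. Several libraries stood apart. CONTROL_1 and CONTROL_3 were low for most members: of the 44 members with a median of at least 1 CPM, 41 and 40 lay below their median over the 20 libraries. CONTROL_1 was the lowest library of the 20 for 19 of the 44 and CONTROL_3 for 10. FR3_3, an inseminated library, lay below the median for all 44, and FR3_1 for 38. At the other end FR3_4 was the highest library for 11 members and CONTROL_4 for 8. Libraries carry the group and the column number of the table, which does not say which sow of the group each came from.

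**Figure D1:**
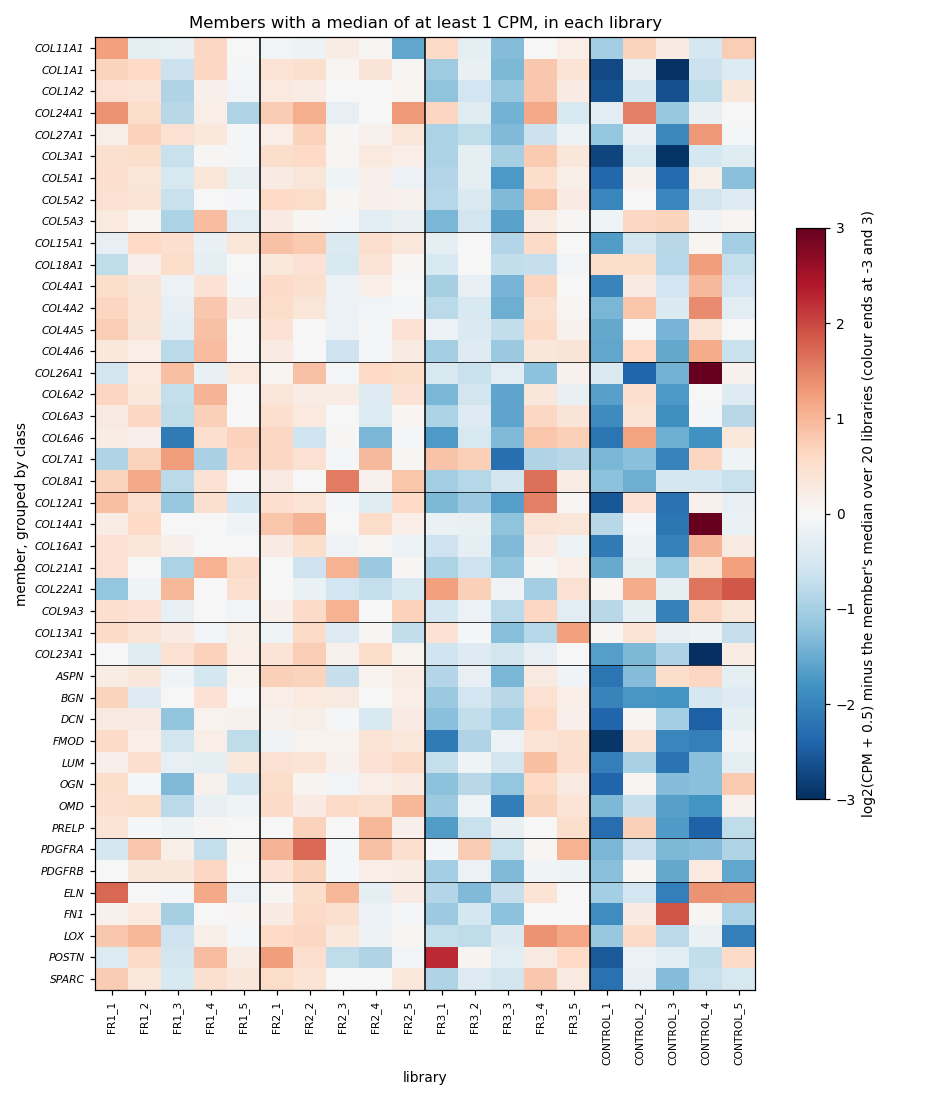
Level of the 44 members with a median of at least 1 CPM in each library, as log2(CPM + 0.5) minus the member's median over 20 libraries. Rows are members grouped by class, and columns are libraries in the order FR1, FR2, FR3, CONTROL. CONTROL_1 and CONTROL_3 are blue for most members, as are FR3_1 and FR3_3, and CONTROL_4 is dark red for COL14A1 and COL26A1.

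Across all inseminated sows against CONTROL, 6 of the 54 tested members rose and 1 fell by edgeR's quasi-likelihood test at an adjusted p below 0.05. The members that rose were LUM, PDGFRA, BGN, SPARC, COL23A1 and COL15A1, and COL9A2 fell. Of all 17745 genes tested, 2.87% were called higher and 8.2% lower, so members were called higher more often than genes at large (11.1% of members) and lower less often (1.85%), shares that were not compared by a test. The fold change was above 0 for 39 of the 54 members and for 46% of all genes. The median log2 fold change was 0.54 over members and -0.05 over all genes. At an unadjusted p below 0.05, 13 members were higher and 3 lower, beside 9.44% and 16.6% of all genes. No member kept all 15 inseminated libraries above or below all 5 controls, which 0.265% of genes did upward and 0.203% downward. With CONTROL_1 and CONTROL_3 left out, PDGFRA was the 1 member called higher, and 4 were called lower (COL9A2, COL14A1, COL22A1 and COL26A1). The median was then 0.09 over members and -0.06 over all genes. Calls over all genes fell as well, from 1965 to 1103 of 18340 tested, with 266 of them higher, against 510 before.

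**Figure D2:**
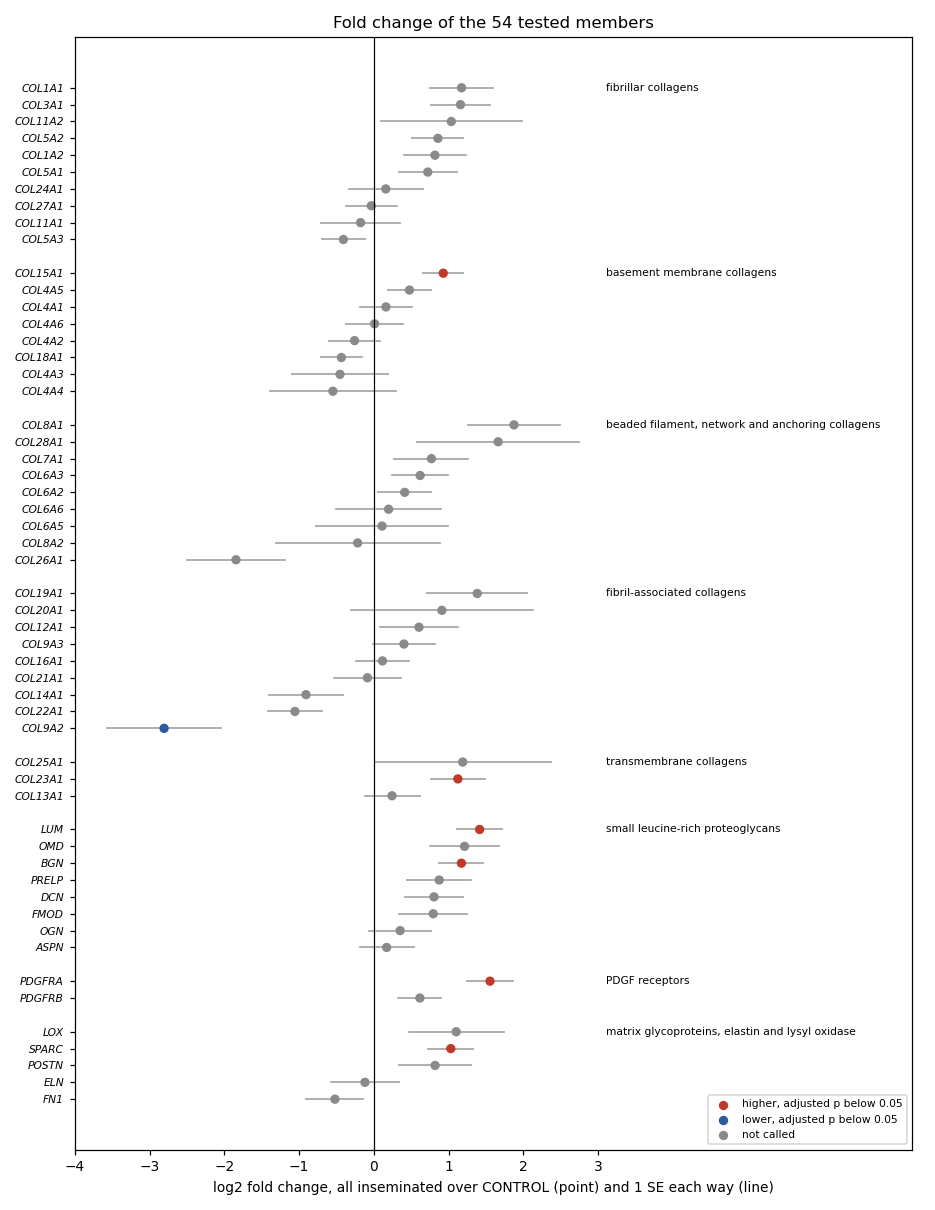
Log2 fold change of each of the 54 tested members for all inseminated sows over CONTROL, with 1 standard error each way, grouped by class. The 8 small leucine-rich proteoglycans all lie right of 0 with 2 called, and COL9A2, at -2.81, is the 1 member called lower.

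The 8 small leucine-rich proteoglycans all had fold changes above 0, with a median of 0.84, and 2 of them, LUM and BGN, were called. Lumican (LUM), which limits the width of collagen fibrils, had 349, 448, 264, 258 and 388 CPM in FR1, 430, 417, 341, 422 and 470 in FR2, and 191, 287, 214, 591 and 441 in FR3, against 75.1, 159, 67.3, 131 and 254 in CONTROL. Of the 15 inseminated libraries 13 lay above every control, and FR3_1 and FR3_3 lay below CONTROL_5. The log2 fold change of LUM was 1.42 ± 0.30 (SE), a rise with an adjusted p of 0.00509 by edgeR. Without CONTROL_1 and CONTROL_3 it stood at 0.98 ± 0.30 (edgeR adjusted p = 0.065).

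Biglycan (BGN), a chondroitin or dermatan sulfate proteoglycan of the fibril surface, had 233, 112, 145, 196 and 148 CPM in FR1, 168, 180, 177, 148 and 167 in FR2, and 67.8, 98.9, 82, 201 and 167 in FR3, against 36, 43.5, 41.8, 102 and 112 in CONTROL. The FR2 values lay close together and above every control, while 3 FR3 libraries and FR1_2 lay within the range of the controls. BGN rose by 1.17 ± 0.29 (edgeR adjusted p = 0.0144). Without CONTROL_3 alone it stood at 1.04 ± 0.33 (edgeR adjusted p = 0.0727), and without CONTROL_1 and CONTROL_3 at 0.78 ± 0.32 (edgeR adjusted p = 0.169).

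Decorin (DCN), the closest relative of biglycan and a regulator of TGF-beta, had 648, 647, 236, 581 and 583 CPM in FR1, 592, 605, 524, 389 and 632 in FR2, and 225, 322, 266, 812 and 597 in FR3, against 102, 550, 266, 98.2 and 438 in CONTROL. CONTROL_4 was the lowest library of the 20 and CONTROL_2 lay among the inseminated values, so the groups overlapped. DCN was at 0.81 ± 0.38 and did not pass (edgeR adjusted p = 0.188). Osteomodulin (OMD), a keratan sulfate proteoglycan, was at 1.21 ± 0.46 and did not pass either (edgeR adjusted p = 0.0997). OMD had 0.701 to 9.7 CPM in inseminated libraries with a median of 6.3, against 0.964 to 5.02 in CONTROL with a median of 1.51. The remaining proteoglycans PRELP, FMOD, OGN and ASPN were at 0.87, 0.79, 0.35 and 0.17, none called. PRELP had 13.4 to 88.7 CPM in inseminated libraries with a median of 44.8, against 7.82 to 72.3 in CONTROL with a median of 13.3, and the high control value was CONTROL_2 alone. By the order of genes in RefSeq (Sscrofa11.1), DCN lies beside LUM, FMOD beside PRELP, and OMD between OGN and ASPN. The fold changes of neighbours were 0.81 and 1.42 for DCN and LUM, 0.79 and 0.87 for FMOD and PRELP, and 0.35, 1.21 and 0.17 for OGN, OMD and ASPN.

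PDGFRA, the PDGF receptor of fibroblasts and their precursors, had the smallest p of the members. It had 25.5, 63.9, 41.2, 22.2 and 37.9 CPM in FR1, 73.9, 119, 34.8, 67.8 and 52.2 in FR2, and 35.3, 62.3, 22.8, 37.6 and 75.4 in FR3, against 13.9, 23.2, 13.9, 14.6 and 19.3 in CONTROL. Of the inseminated libraries 13 exceeded every control, and FR1_4 and FR3_3 lay just below CONTROL_2. PDGFRA rose by 1.55 ± 0.31 (edgeR adjusted p = 0.00345), and it stood at 1.36 ± 0.39 without CONTROL_1 and CONTROL_3 (edgeR adjusted p = 0.0499). Under limma-voom with a spread per group it was at 1.48 ± 0.53 and was not called (adjusted p = 0.179). PDGFRB, the receptor of pericytes and other mural cells, was at 0.62 ± 0.29 and was not called (edgeR adjusted p = 0.181). Its levels were 110, 138, 136, 165 and 107 CPM in FR1, 146, 172, 105, 124 and 127 in FR2, and 52.9, 95.5, 42.6, 101 and 97.9 in FR3, against 45.1, 112, 36.7, 133 and 36.6 in CONTROL. The controls thus split, with CONTROL_2 and CONTROL_4 in the range of FR1 and FR2. The ligand genes PDGFA, PDGFC and PDGFD were at 0.53, -0.15 and -0.24, and 0 of the 3 were called.

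**Figure D3:**
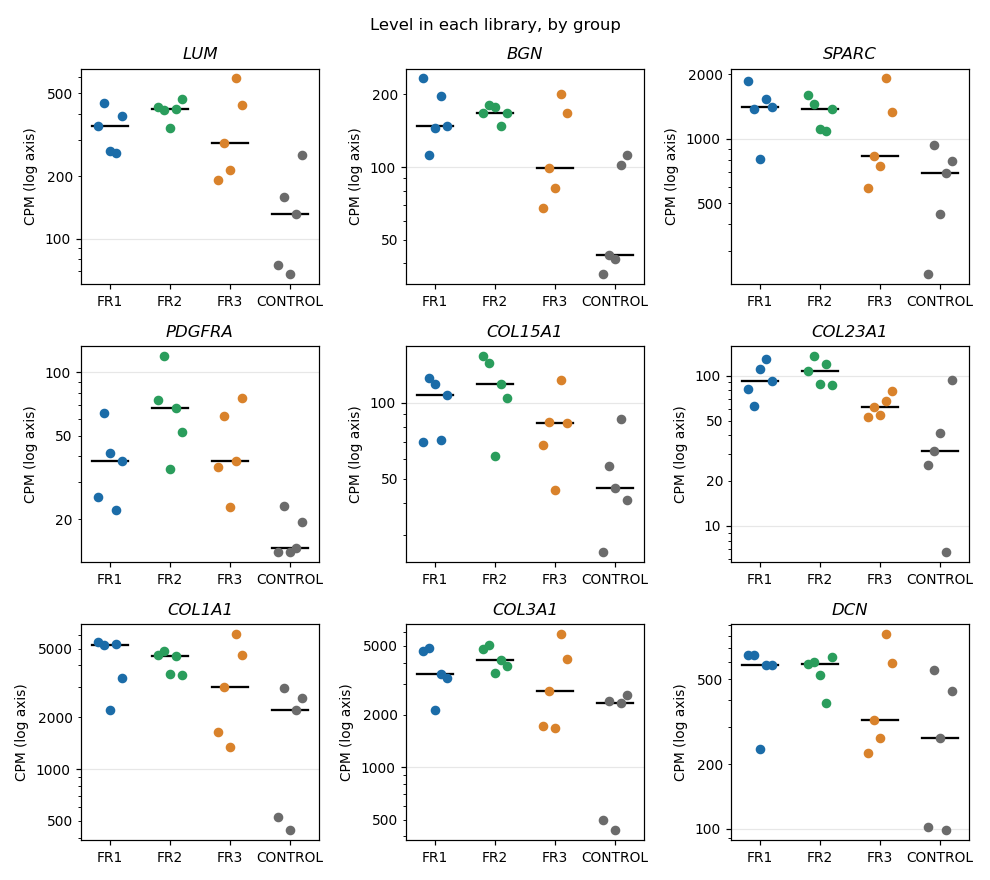
CPM of 9 members in each library on a log axis, by group, with a line at the group median. LUM, BGN, SPARC, PDGFRA, COL15A1 and COL23A1 rose in inseminated sows, and COL1A1, COL3A1 and DCN did not pass. CONTROL_1 and CONTROL_3 are the 2 low grey points of COL1A1 and COL3A1.

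None of the 10 tested fibrillar collagens was called, although 7 had fold changes above 0 and the median of the class was 0.77. COL1A1, the main chain of type I collagen, had 5481, 5271, 2196, 5297 and 3396 CPM in FR1, 4628, 4854, 3585, 4552 and 3526 in FR2, and 1644, 2979, 1348, 6075 and 4620 in FR3, against 526, 2969, 440, 2207 and 2585 in CONTROL. The inseminated libraries exceeded every control in 12 of 15 cases, and only CONTROL_1 and CONTROL_3 lay below every inseminated library. COL1A1 was at 1.17 ± 0.43 (edgeR adjusted p = 0.0837), and at 0.58 ± 0.37 without those 2 controls (edgeR adjusted p = 0.395).

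COL3A1, the single chain of type III collagen, had 4662, 4838, 2120, 3421 and 3277 CPM in FR1, 4810, 5039, 3502, 4122 and 3838 in FR2, and 1735, 2741, 1679, 5817 and 4204 in FR3, against 495, 2416, 434, 2328 and 2602 in CONTROL. Again 12 of 15 inseminated libraries exceeded every control, with CONTROL_1 and CONTROL_3 the 2 lowest of all. COL3A1 was at 1.16 ± 0.40 (edgeR adjusted p = 0.0681), and at 0.56 ± 0.32 without CONTROL_1 and CONTROL_3 (edgeR adjusted p = 0.335). COL5A2 and COL5A1, chains of the type V collagen inside type I fibrils, were at 0.86 and 0.72, and COL1A2 at 0.82, none called. COL5A3, COL11A1 and COL27A1 had fold changes below 0, at -0.41, -0.18 and -0.03, and the minor chains COL24A1 and COL11A2 were at 0.16 and 1.04. COL5A2 had 101 to 454 CPM in inseminated libraries with a median of 279.9, against 64.7 to 253 in CONTROL with a median of 174. DESeq2 did call COL1A1 and COL3A1, and so did edgeR with the smooth muscle markers as a covariate. Of 31 alternatives, COL1A1 was not called in 29 and COL3A1 in 28.

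Chains that assemble into the same molecule can be compared within a library, where the ratio of their counts does not depend on scaling. COL4A1 and COL4A2 lie side by side and are known in mouse and human to be read in opposite directions from a shared promoter. Their count ratio was 0.969, 1.03, 1.1, 0.815 and 0.872 in FR1, 1.07, 1.15, 1.05, 1.28 and 1.06 in FR2, and 0.927, 1.21, 1.1, 1.17 and 1.05 in FR3, against 0.694, 0.702, 0.955, 0.777 and 0.896 in CONTROL. In 12 of the 15 inseminated libraries the ratio exceeded every control. The mean log2 ratio was higher by 0.40 in inseminated sows (0.07 ± 0.17, SD, n = 15) than in CONTROL (-0.33 ± 0.21, SD, n = 5), with p = 0.000967 by a 2-sided exact permutation test over 15504 sets of 5 libraries. The value adjusted over the 5 ratios computed was 0.00484 (exact permutation test). Neither gene was called on its own, with COL4A1 at 0.16 ± 0.34 and COL4A2 at -0.26 ± 0.34. The ratio kept its direction and stayed past the threshold when CONTROL_1 and CONTROL_3 were left out (0.41, adjusted exact permutation p = 0.0184).

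The other 4 ratios did not pass. COL1A1 to COL1A2, the 2 chains of type I collagen, was higher by 0.32 on the log2 scale in inseminated sows, with medians of 1.95 in inseminated and 1.61 in CONTROL libraries (exact permutation p = 0.0217, adjusted p = 0.0542). CONTROL_5 was the lowest library, at 1.02, and without it the difference was 0.17 (adjusted exact permutation p = 0.37). COL3A1 to COL1A1 had medians of 0.965 in inseminated and 0.985 in CONTROL libraries and a difference of -0.00018 (exact permutation p = 0.998, adjusted p = 0.998). BGN to DCN differed by 0.24 (exact permutation p = 0.522, adjusted p = 0.653) and LUM to FMOD by 0.32 (exact permutation p = 0.353, adjusted p = 0.588).

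**Figure D4:**
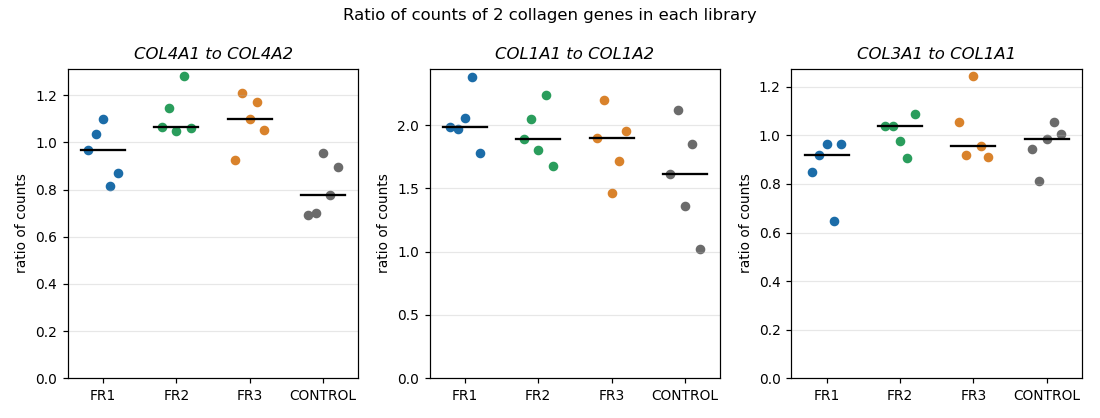
Ratio of counts of 2 collagen genes in each library, by group, with a line at the group median. COL4A1 to COL4A2 lies between 0.815 and 1.28 in inseminated libraries and between 0.694 and 0.955 in CONTROL, while COL3A1 to COL1A1 has medians of 0.965 in inseminated libraries and 0.985 in CONTROL.

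Among the 8 collagens of basement membranes 1 was called, COL15A1, and 4 had fold changes above 0. COL15A1, which links basement membranes to the fibrils beneath, had 69.7, 125, 119, 71.2 and 107 CPM in FR1, 153, 144, 61.7, 119 and 105 in FR2, and 67.9, 83.6, 45, 124 and 82.9 in FR3, against 25.5, 56.3, 46.2, 86.6 and 41.1 in CONTROL. All groups overlapped, since CONTROL_4 reached the middle of the inseminated values. COL15A1 rose by 0.93 ± 0.27 (edgeR adjusted p = 0.0325). The call was lost without CONTROL_1, CONTROL_3 or CONTROL_5 (0.76, 0.88 and 0.84, edgeR adjusted p = 0.0689, 0.0961 and 0.0624), and without CONTROL_1 and CONTROL_3 together it stood at 0.63 ± 0.30 (edgeR adjusted p = 0.231). COL18A1, its relative and the source of endostatin, was at -0.43 ± 0.27 and was not called (edgeR adjusted p = 0.333). The other type IV chains lay at 0.48 for COL4A5 and 0.01 for COL4A6, and at -0.45 and -0.55 for COL4A3 and COL4A4, which are the chains of kidney and other specialised membranes. COL4A5 had 78.2 to 239.7 CPM in inseminated libraries, against 44.6 to 173 in CONTROL, while the medians of COL4A3 and COL4A4 were under 1 CPM in both.

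Of the 9 tested members grouped here as beaded filament, network and anchoring collagens, none was called. COL6A2 and COL6A3 of type VI collagen were at 0.41 and 0.62, and COL6A5 and COL6A6, other chains of that type, at 0.11 and 0.20. COL7A1, the anchoring fibril collagen beneath epithelia, was at 0.77 ± 0.49, with 5.74 to 70.7 CPM in inseminated libraries and 6.88 to 46.2 in CONTROL. COL8A1, a network collagen of vessel walls, had the largest positive fold change of all members, 1.88 ± 0.61, at a low level and without passing (edgeR adjusted p = 0.0553). It had 0.41 to 5.32 CPM in inseminated libraries with a median of 1.67, against 0.179 to 0.825 in CONTROL with a median of 0.671. COL26A1 was at -1.84 ± 0.66 and did not pass (edgeR adjusted p = 0.077), with 1.36 to 7.62 CPM in inseminated libraries, against 64.7 in CONTROL_4 and 0.332 to 4.26 in the other controls. COL28A1 and COL8A2, at 1.66 ± 1.08 and -0.22 ± 1.1, stayed under 1 CPM in every library.

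The fibril-associated collagens, which decorate fibrils without forming them, held the 1 member that fell, COL9A2, a chain of the type IX collagen best known from cartilage. It was near 1 CPM or below in most libraries: 0.863, 0.101, 0.566, 0.285 and 0 CPM in FR1, 0.304, 0.264, 0.938, 0.899 and 0 in FR2, and 1.28, 0.319, 0.964, 0.823 and 3.33 in FR3, against 0.712, 3.42, 0.298, 13.4 and 3.8 in CONTROL. CONTROL_2, CONTROL_4 and CONTROL_5 exceeded every inseminated library, and CONTROL_1 and CONTROL_3 lay among them. COL9A2 fell, with a log2 fold change of -2.81 ± 0.76 (edgeR adjusted p = 0.0232), but stood at -1.72 ± 0.81 without CONTROL_4 (edgeR adjusted p = 0.21). COL22A1, a collagen of tissue junctions, was at -1.05 ± 0.36 and did not pass (edgeR adjusted p = 0.0651). It had 2.93 to 17.5 CPM in inseminated libraries with a median of 6.62, against 5.87 to 27.3 in CONTROL with a median of 16. COL14A1, at -0.91, had 50.4 to 235 CPM in inseminated libraries, against 971 in CONTROL_4 and 25.4 to 113 in the other controls. COL19A1 was at 1.38 ± 0.67 and was not called (edgeR adjusted p = 0.196), although 13 inseminated libraries exceeded every control, at 0 to 1.7 CPM in inseminated libraries and 0.0209 to 0.377 in CONTROL. COL20A1, COL12A1, COL9A3 and COL16A1 were at 0.91, 0.60, 0.40 and 0.12, and COL21A1 at -0.085.

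Of the 3 transmembrane collagens COL23A1 was called, while COL13A1 and COL25A1 were at 0.24 ± 0.37 and 1.19 ± 1.18. COL23A1 had 81.6, 62.7, 111, 130 and 92.4 CPM in FR1, 107, 134, 88.4, 119 and 87.2 in FR2, and 53.3, 61.5, 54.4, 68.2 and 79.3 in FR3, against 25.3, 31.5, 41.8, 6.67 and 93.3 in CONTROL. CONTROL_1 to CONTROL_4 lay below every inseminated library, and CONTROL_5 lay above 10 of the 15. COL23A1 rose by 1.12 ± 0.36, close to the threshold (edgeR adjusted p = 0.0478). Leaving out any of 19 libraries in turn took the adjusted p past 0.05, up to 0.103 without CONTROL_3, and leaving out CONTROL_5 gave 1.73 (edgeR adjusted p = 0.00111).

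SPARC, a secreted protein that binds collagen and is needed for its orderly deposition, had 1860, 1376, 803, 1534 and 1404 CPM in FR1, 1605, 1463, 1118, 1087 and 1381 in FR2, and 588, 836, 748, 1917 and 1330 in FR3, against 233, 932, 445, 695 and 787 in CONTROL. The inseminated libraries exceeded every control in 11 of 15 cases. SPARC rose by 1.03 ± 0.30 (edgeR adjusted p = 0.0334). It was not called without CONTROL_1, CONTROL_3, CONTROL_4 or FR2_1 (0.82, 0.93, 1.09 and 1.01, edgeR adjusted p = 0.0596, 0.12, 0.0606 and 0.0501), and stood at 0.62 ± 0.30 without CONTROL_1 and CONTROL_3 (edgeR adjusted p = 0.239). The other 4 matrix genes were not called. LOX, the main cross-linking enzyme of collagen and elastin, was at 1.1 ± 0.64, POSTN at 0.82 ± 0.48, ELN at -0.12 ± 0.45 and FN1 at -0.52 ± 0.38. Fibronectin (FN1), an adhesive matrix glycoprotein, had 89.2 to 311 CPM in inseminated libraries, against 773 in CONTROL_3, which was below the median for 40 of the 44 members, and 56.7 to 249 in the other controls.

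Enzymes that build collagen gave few calls. Of 20 genes of collagen folding and modification 2 rose and 1 fell, with a median log2 fold change of 0.06. PLOD1, which hydroxylates lysines of collagen, had 71.6, 85.8, 130, 78.1 and 129 CPM in FR1, 120, 186, 65.1, 114 and 108 in FR2, and 139, 151, 84.1, 72.7 and 92.3 in FR3, against 49.1, 56.9, 30.4, 62.7 and 56.4 in CONTROL. It thus lay above every control in every inseminated library, and rose by 1.08 ± 0.24 (edgeR adjusted p = 0.00679). It stood at 0.85 ± 0.28 without CONTROL_1 and CONTROL_3 (edgeR adjusted p = 0.0826). P4HA2, a catalytic subunit of collagen prolyl 4-hydroxylase, rose by 0.48 ± 0.15 (edgeR adjusted p = 0.042), a call kept in 10 of 31 alternatives. PPIB, the cyclophilin of the collagen prolyl 3-hydroxylation complex, fell by 0.49 (-0.49 ± 0.12, edgeR adjusted p = 0.016). It had 268 to 452 CPM in inseminated libraries, against 389 to 531 in CONTROL, and was not called without CONTROL_4 (-0.41, edgeR adjusted p = 0.0832).

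Of 13 genes of procollagen trimming and cross-linking none rose and 2 fell, TLL2 and LOXL4, with 1 or 2 controls far above the others. TLL2, a proteinase of the BMP1 family, had 0.137 to 1.03 CPM in inseminated libraries, against 0.733, 72.5, 6.65, 1.05 and 4.98 in CONTROL. It was at -5.53 ± 0.66 (edgeR adjusted p = 8.18e-05) and at -3.17 without CONTROL_2 (edgeR adjusted p = 0.00047). LOXL4, a lysyl oxidase relative, had 0.57 to 4.48 CPM in inseminated libraries, against 0.943, 2.33, 86.1, 28.5 and 0.44 in CONTROL. It was at -3.83 ± 0.68 (edgeR adjusted p = 0.00144) and at -2.31 without CONTROL_3 (edgeR adjusted p = 0.0406). Of 15 elastic fibre and microfibril genes 1 fell, MFAP5, with 3.16 to 23.9 CPM in inseminated libraries, against 469 in CONTROL_2 and 2.7 to 17.9 in the other controls. It was at -3.69 ± 0.74 (edgeR adjusted p = 0.00318), and without CONTROL_2 at -0.24 ± 0.49 (edgeR adjusted p = 0.799). None of 9 other leucine-rich matrix genes was called, with KERA at 1.87 ± 0.85 and ECM2 at 0.64 ± 0.39. None of 9 collagen receptors was called, with DDR1 at -0.51 ± 0.18 and MRC2 at -1.15 ± 0.42.

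Epithelial markers moved opposite to most members. Of 14 tested markers of uterine epithelium 6 fell in inseminated sows and none rose: ELF3 at -3.15, MUC1 at -3.51, CLDN4 at -2.26, KRT18 at -1.25, CLDN7 at -0.92 and EPCAM at -0.92. Another 3 of the 14 had fold changes above 0 without passing, FOXA2 at 0.99 ± 0.47, GRHL2 at 0.84 ± 0.32 and KRT19 at 0.21 ± 0.45. The summed level of all 14 markers was 1712 to 6622 CPM in inseminated libraries with a median of 3576, against 4514 to 7849 in CONTROL with a median of 5494. CONTROL_1, lowest of all libraries in summed member level at 3717 CPM, had the highest epithelial sum, and FR3_4, highest in members at 24952 CPM, had the lowest. The 4 inseminated libraries with the highest epithelial sums, FR3_1, FR3_3, FR3_2 and FR1_3, were also the 4 with the lowest member sums. With the mean log2 level of the epithelial markers as a covariate, PDGFRA was the 1 member called higher. COL5A3 was called lower, and the median over members was -0.04. Over all 17745 genes that fit called 1893, of which 1086 were higher, against 510 of 1965 without the covariate. Since 6 of the 14 markers themselves fell in inseminated sows, this fit cannot tell their part from that of insemination. The part of tissue composition in the member results was not tested.

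Of the smooth muscle markers 0 of 10 were called, and their sums overlapped, at 4561 to 33117 CPM in inseminated libraries, against 1331 to 36996 in CONTROL. CONTROL_1 was lowest in both muscle and member sums, while CONTROL_3, also low in members, had 32172 CPM of muscle markers. Inseminated libraries were ranked from 1, the lowest, to 15. FR3_3, FR3_1, FR1_3 and FR3_2 ranked 1, 2, 3 and 4 in members and 5, 4, 1 and 3 in muscle. FR3_4 and FR1_1 ranked 15 and 14 in members and 14 and 15 in muscle, while FR2_4 ranked 8 and 2. The part of muscle content in the member sums was not tested. With the smooth muscle markers as a covariate 10 members were called higher, beside 895 of all 17745 genes. Without that covariate the counts were 6 and 510. None of the leukocyte, endothelial, pericyte or red blood cell markers tested was called. All 6 pericyte markers had fold changes above 0, with a median of 0.49, and summed to 152 to 490.1 CPM in inseminated libraries with a median of 321, against 189 to 451 in CONTROL with a median of 213. Their part in the member results was not tested. Immediate early and heat shock genes, which respond to tissue handling, fell for 8 of 13 tested. They summed to 1757 to 2926 CPM in inseminated libraries with a median of 2177, against a median of 2802 in CONTROL. CONTROL_3 was at 7225 CPM and the other controls at 2498 to 3550. The part of this difference between groups in the member results was not tested.

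**Figure D5:**
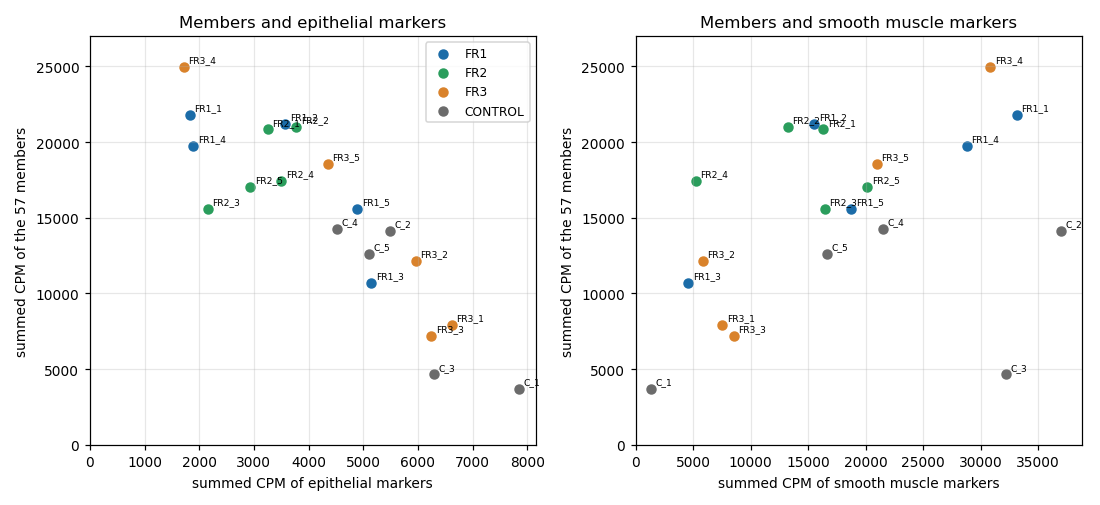
Summed CPM of the 57 members against summed CPM of the epithelial markers (left) and of the smooth muscle markers (right), 1 point per library, coloured by group, with C for CONTROL. On the left the libraries with the highest epithelial sums have the lowest member sums. On the right CONTROL_1 is lowest in both sums, while CONTROL_3, at 32172 CPM of muscle markers, has few member counts.

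Each seminal fraction was also set against the same 5 controls, so the 3 comparisons are not independent. In FR1 against CONTROL 2 members rose and none fell, where 0.609% of all genes were called higher, 1.99% lower and 2.6% in either direction. Of these BGN rose by 1.31 ± 0.34 (edgeR adjusted p = 0.0449), and LUM had an edgeR adjusted p of 0.0457. Both calls were lost with relative log expression factors, with limma-voom, with no filter on low counts, and without CONTROL_1, CONTROL_3, FR3_2, FR3_5 or any 1 library of FR1 or FR2. PDGFRA was at 1.17 ± 0.35 there and did not pass (edgeR adjusted p = 0.0762). In FR2 against CONTROL 5 members rose and none fell, beside 1.57% of all genes called higher, 3.98% lower and 5.55% in either direction. PDGFRA rose by 2.04 ± 0.36, LUM by 1.60 ± 0.35, BGN by 1.32 ± 0.34, COL23A1 by 1.43 ± 0.41 and COL15A1 by 1.19 ± 0.32 (edgeR adjusted p = 0.00653, 0.0136, 0.0298, 0.0487 and 0.0356). Without CONTROL_3 or FR2_3 the count was 3, and without any other FR2 library it was 2. In FR3 against CONTROL 2 members rose and none fell, beside 1.43% of all genes called higher, 2.85% lower and 4.27% in either direction: PDGFRA by 1.46 ± 0.36 and LUM by 1.33 ± 0.34 (edgeR adjusted p = 0.0293 and 0.0363). Neither was called with limma-voom or without CONTROL_3, CONTROL_4, FR3_1, FR3_2 or FR3_5, and 1 was called without FR3_4. With only the groups compared in the fit, 0 members were called for each of the 3 fractions.

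At an unadjusted p below 0.05 the members higher numbered 12 in FR1, 14 in FR2 and 8 in FR3, beside 6.3%, 8.35% and 8.63% of all genes. Those lower numbered 1, 2 and 3, beside 11.9%, 13.5% and 12.7%. The fold change over CONTROL was above 0 for 45 of 54 members in FR1, 40 in FR2 and 33 in FR3, beside 46.9%, 47.1% and 45.7% of all genes.

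Counted by levels alone, 10 members had all 5 FR2 libraries above all 5 controls, namely BGN, COL1A1, COL3A1, COL5A2, COL8A1, COL19A1, LUM, OMD, PDGFRA and SPARC, as did 2.51% of all genes. FR1 separated from CONTROL in this way for 2 members, LUM and COL19A1 (1.24% of all genes), and FR3 for none (1.01% of all genes). No member had a whole fraction below all controls, as 1.36%, 2.54% and 1.18% of all genes did in FR1, FR2 and FR3. The spread within groups differed as well. Over the 44 members with a median of at least 1 CPM, the highest library exceeded the lowest by a median factor of 2.52 in FR1, 1.77 in FR2, 3.76 in FR3 and 6.73 in CONTROL. FR2 was the narrowest group for 29 of the 44 and CONTROL the widest for 34.

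No member was called between any pair of fractions by edgeR, and none by DESeq2, where edgeR called 0% of all genes for FR2 against FR1, 0.00564% for FR3 against FR2 and 0% for FR3 against FR1. At an unadjusted p below 0.05 PDGFRA was higher in FR2 than in FR1, at 0.87 ± 0.35, 1 member of 54 beside 0.406% of all genes. COL27A1 and PDGFRB were lower in FR3 than in both other fractions, 2 members (3.7%) each time. That share was below the 4.15% of all genes against FR2 and the 4.39% against FR1. None was higher in FR3, beside 3.21% and 3.9% of all genes. COL27A1, a fibrillar collagen, had 6.56, 7.45, 4.93, 8.18 and 11.8 CPM in FR3, against 15, 21.4, 13.5, 14.4 and 16.9 in FR2 and 14.8, 21.5, 18.1, 16.3 and 12.6 in FR1. The FR3 libraries did not overlap either group for COL27A1 or for PDGFRB, and for COL23A1 they lay below all of FR2. Such separation below FR2 occurred for 1.9% of all genes and below FR1 for 1.43%. COL27A1 stood at -1.06 ± 0.43 against FR2 and -1.1 ± 0.43 against FR1 (edgeR adjusted p = 0.666 and 0.593), and PDGFRB at -0.79 ± 0.34 and -0.75 ± 0.34 (edgeR adjusted p = 0.666 and 0.596). The fold change was above 0 for 29 of 54 members in FR2 against FR1 (51.7% of all genes), for 10 in FR3 against FR2 (50.5%) and for 7 in FR3 against FR1 (50.7%). The medians over members were 0.03, -0.45 and -0.37, against 0.01 over all genes in each. The comparisons with FR3 share the FR3 libraries, of which FR3_1, FR3_2 and FR3_3 held 3 of the 4 lowest member sums among inseminated sows, beside 3 of the 4 highest epithelial sums. In smooth muscle sums these libraries ranked 4, 3 and 5 from the lowest of the 15 inseminated libraries.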

How the data were processed

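Messenger RNA was captured with poly-T beads from uterine tissue of 20 sows and sequenced in pairs, per the labels' protocols. The submitters' processing notes name Salmon 1.10.1, STAR 2.7.9a and CASAVA, without their roles. Build, annotation and strand setting are not given in the sources used here, so overlapping antisense genes cannot be told apart. The authors deposited unscaled estimated counts for each gene, also called expected counts, which were rounded to whole counts here. The 24 rows naming no gene, 0.0036% to 0.0133% of each library, were left out.

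The 2-sided quasi-likelihood test of edgeR 4.0.16 (R 4.3.3) was run on the counts with TMM factors, filterByExpr (17745 genes kept), all 20 libraries in 1 fit with 16 residual degrees of freedom and Benjamini-Hochberg adjustment over all genes tested. The groups thus shared 1 estimate of the spread per gene, although CONTROL was the widest group for 34 of 44 members. Genes with an adjusted p under 0.05 were called. Each standard error is the absolute log2 fold change over the root of F, and levels are TMM-scaled CPM, which are not per length and so not compared between genes. Count ratios, with 0.5 added to each gene, were compared by a 2-sided exact permutation test. COL6A1 was not analysed here, so 1 planned ratio was not run. Parity is given only over all sows, with a mean of 3.53 (SD 1.12), and not for each sow. Beyond such shared traits, the replicates are described only as separate sows. All samples share 1 batch label.

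The members, the gene lists, the tests and most alternatives were chosen with earlier results of these data known. Named are all members called, COL1A1, COL3A1, DCN and BGN, and per pathway list the called genes or the 2 with the smallest p. Other members, PDGFC and the epithelial markers were named after their values were seen. Alternatives were DESeq2 1.42.0, limma-voom (limma 3.58.1) with a spread per group, relative log expression factors, 2 other filters, only the groups compared, a smooth muscle covariate, 10 counts added in ratios, and libraries left out. An epithelial covariate and leaving out CONTROL_4 with FR3_1 or CONTROL_1 with CONTROL_3 were added after seeing the data. The procedure was tested on simulated data with 1 spread per gene shared by all groups. It called 17 of 50 genes raised 2-fold, 33 of 50 raised 4-fold and 39 of 50 raised 8-fold. Of genes lowered 2-fold it called 29 of 47, and of unchanged genes 4 of 17193. A member that was not called is therefore not shown to be unchanged. All 57 members matched the RefSeq table of Sscrofa11.1 by gene identifier and symbol.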

Additional observations from a re-analysis of the deposited data

Results flagged for a closer look

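Single libraries stood far from the other 4 of their group for 9 of 173 combinations of member and group with a group median of at least 1 CPM. The rule flags about 1 in 20 for independent, normally distributed values, which the CPM of members need not be. The rate for these data was not computed. Of the 9, 2 were in FR3, 1 in FR1, none in FR2 and 6 in CONTROL, 3 of these in CONTROL_4.

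COL12A1 was at 369 CPM in FR3_4, with the other FR3 libraries at 40.8 to 132. POSTN was at 89.5 CPM in FR3_1, with the others at 14.9 to 28.5. DCN was at 236 CPM in FR1_3, the 1 low value, with the others at 581 to 648. In CONTROL_4 COL14A1 was at 971 CPM (others 25.4 to 113), COL26A1 at 64.7 CPM (others 0.332 to 4.26) and COL9A2 at 13.4 CPM (others 0.298 to 3.8). In CONTROL_2 COL24A1 was at 13.3 CPM (others 1.67 to 4.24) and PRELP at 72.3 CPM (others 7.82 to 26). In CONTROL_3 FN1 was at 773 CPM (others 56.7 to 249). COL9A2 is the 1 of these members that was called in inseminated sows against CONTROL, and it was not called without CONTROL_4.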

How the results depend on the processing

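LUM and PDGFRA were called higher in 29 and 30 of 31 alternatives, BGN in 27, COL9A2 lower in 26, COL15A1 in 24, SPARC in 22 and COL23A1 in 5, and none of the 7 changed sign. The count of 6 members higher in inseminated sows against CONTROL became 10 by DESeq2, 3 by limma-voom with a spread per group, 10 with the smooth muscle covariate, 3 without CONTROL_2 and CONTROL_3, and 1 with the epithelial covariate or without CONTROL_1 and CONTROL_3. Leaving out 1 library in turn gave 2 to 8, with 2 without CONTROL_3 and 3 without CONTROL_1. Genes called higher among all tested numbered 510, and became 952 by DESeq2, 82 by limma-voom and 895 with the smooth muscle covariate. They became 314 without CONTROL_2 and CONTROL_3, 266 without CONTROL_1 and CONTROL_3, and 1086 with the epithelial covariate. Without CONTROL_3 alone they numbered 240, and without CONTROL_1 alone 836. The 1 member lower became 2 by DESeq2 and with no filter, 0 by limma-voom, without CONTROL_4 and FR3_1 and without CONTROL_4, FR1_1, FR1_4, FR2_3 and FR3_4 together, 3 without CONTROL_2 and CONTROL_3, 4 without CONTROL_1 and CONTROL_3, and 0 to 3 with 1 library left out.

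In FR1 against CONTROL the count of 2 became 6 by DESeq2, 0 by relative log expression factors, limma-voom, no filter, only the groups compared and without either pair of controls, 1 with the epithelial covariate or without the 5 libraries named above, and 0 to 3 with 1 library left out. In FR2 against CONTROL the count of 5 became 12 by DESeq2 and with the smooth muscle covariate, 0 with only the groups compared, 3 without CONTROL_2 and CONTROL_3, 2 without CONTROL_1 and CONTROL_3, 1 with the epithelial covariate, and 2 to 6 with 1 library left out. In FR3 against CONTROL the count of 2 became 0 by limma-voom, with only the groups compared and without CONTROL_4 and FR3_1, 1 without the 5 libraries or without either pair of controls, and 0 to 3 with 1 library left out. Between fractions 0 members were called under all 32 alternatives.

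The log2 COL4A1 to COL4A2 difference passed in all 24 alternatives, at 0.35 to 0.46. COL1A1 to COL1A2 ran from 0.17 to 0.43 with 1 library left out and passed in 4 of these 20. COL3A1 to COL1A1 changed sign about 0, to 0.0991 without the 5 libraries and 0.00618 without CONTROL_1 and CONTROL_3, and ran from -0.0585 to 0.0403 with 1 left out. BGN to DCN turned to -0.57 and LUM to FMOD to -0.21 without CONTROL_2 and CONTROL_3. With 1 library left out they ran from -0.19 to 0.74 and from -0.0225 to 0.55, each turning without CONTROL_2, and BGN to DCN passed without CONTROL_4. The causes were not tested. No paired analysis was possible because the labels number each sow once and the groups share no replicate numbers. COL9A2, at or below 1 CPM in most inseminated libraries, rests on few counts.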
